A study of Mus musculus with 3 samples.

Results

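Hox genes were read as markers of position along the head-to-tail axis in cells of the mouse medial vestibular nucleus (MVN), the hindbrain nucleus that receives balance signals from the inner ear. The members are the genes of the deposited count table whose symbol is Hoxa, Hoxb, Hoxc or Hoxd followed by a number, and 20 of the 28676 genes met this rule. The GENCODE annotation of the same mouse assembly lists 39 such genes, and the other 19 were not analysed here.

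All mice were C57BL/6, were operated on at postnatal day 20 and were studied 1 day later. Tissue of 10 mice was pooled for the library named control, and tissue of 11 mice with unilateral labyrinthectomy (UL), the surgical removal of the balance organ of the right ear, was pooled by side into the ipsilateral library (ULI) and the contralateral library (ULC). A field of the sample labels gives labyrinthectomy as the treatment in all 3 libraries. The control library was taken as operated without it because of its source name and the methods of the study. Each condition is therefore 1 pooled library, no test over replicates was possible, and every interval below is a 95% counting interval that covers counting error only.

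Hox proteins are homeodomain transcription factors whose genes lie in clusters called A, B, C and D. Genes at the same place in different clusters form a paralogue group, and low groups begin to be expressed further forward in the hindbrain than high groups, so that the set a cell expresses marks the hindbrain segment or spinal level it came from. The pattern is set in the embryo with the help of retinoic acid and is then held by Polycomb and trithorax proteins, and the forebrain and midbrain are formed without Hox genes.

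Gene expression was measured as unique molecular identifiers (UMIs, counts of captured RNA molecules), and 13964 cells with at least 200 genes were kept, 4607 of control, 4813 of ULI and 4544 of ULC. The median depth was 3177 UMIs per cell in control, 2100 in ULI and 931 in ULC. Cells were clustered without the Hox genes and assigned to 16 classes by marker genes, and a class is called by its markers, such as neuron-like. Levels are UMIs per 1000000 UMIs of the class and library (CPM). The barcodes carry serial numbers in place of their sequences, so those that libraries share could not be counted, and 0 of the kept cells had the same count profile.

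Hox transcripts were rare and belonged to the low paralogue groups. They made up 0.00457% of all UMIs, with 2587 UMIs in 1157 cells, which is 8.29% of the cells kept. Of these cells 54.5% held a single Hox UMI, and 164 cells held UMIs of at least 2 Hox genes. The control library held 1102 of them, ULI 1042 and ULC 443.

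Of the 20 members, 14 reached 10 UMIs, and the highest paralogue group among these was 5. Among them were Hoxd1 with 629 UMIs, Hoxb4 with 347, Hoxa2 with 327, Hoxa5 with 268, Hoxd4 with 258, Hoxc4 with 202, Hoxb5 with 161, Hoxa4 with 105, Hoxa3 with 75, Hoxc5 with 54, Hoxb2 with 24, Hoxd3 with 23 and Hoxb3 with 21. The other 6 stayed below that number, namely Hoxb6 and Hoxd8 with 9 UMIs each, Hoxa7 and Hoxb7 with 4 each, Hoxb9 with 2 and Hoxb1 with 1. Cluster D on chromosome 2 gave 35.5% of the Hox UMIs, cluster A on chromosome 6 gave 32.6%, cluster B on chromosome 11 gave 22.0% and cluster C on chromosome 15 gave 9.90%. The exons of 11 members overlap those of another annotated gene, such as Hoxd3 and Hoxd4 with each other, and the sources used here do not say whether the counting used strand.

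The summed Hox level differed widely between classes, as the plot of Hox level by class and library shows. In ULI and ULC it was highest in neuron-like cells, with 1067 CPM (965 to 1178) in ULI and 492 CPM (410 to 587) in ULC, while the 8 neuron-like cells of control held 105 CPM (42.1 to 216). Astrocyte-like cells held 146 CPM (121 to 175) in control, 179 CPM (148 to 215) in ULI and 155 CPM (115 to 204) in ULC. The few fibroblast-like cells held 72.0, 83.9 and 159 CPM, with intervals that overlap those of the astrocyte-like cells in each library. Oligodendrocyte precursor-like cells held 71.3, 95.4 and 58.8 CPM in control, ULI and ULC, and mature oligodendrocyte-like cells 48.1, 39.6 and 28.0 CPM. Neurons and these glia all arise from the neural tube, and the interval of the neuron-like cells lies above those of the glia in ULI and ULC.

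Most classes of blood origin and the vessel lining lay at the other end. Microglia-like cells, the resident immune cells of the brain, held 13.1 CPM (10.2 to 16.5) in control, 7.31 CPM (4.18 to 11.9) in ULI and 3.55 CPM (0.968 to 9.10) in ULC. Perivascular macrophage-like cells held 2, 3 and 0 Hox UMIs in the same order, and endothelial-like cells held 4, 4 and 3. The intervals of these 3 classes do not reach those of the astrocyte-like cells in any library. Lymphocyte-like cells held 2, 0 and 5 Hox UMIs, the 5 in a single cell, and monocyte or neutrophil-like cells held 0 in each library. Over the 23 lymphocyte-like cells of ULC those 5 UMIs give 132 CPM (42.9 to 308). Other cells of the vessel wall were not as low. Smooth muscle-like cells held 46.4, 46.4 and 14.2 CPM and pericyte-like cells 62.6, 36.8 and 22.9 CPM. Their intervals overlap those of mature oligodendrocyte-like cells in each library.

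**Figure D1:**
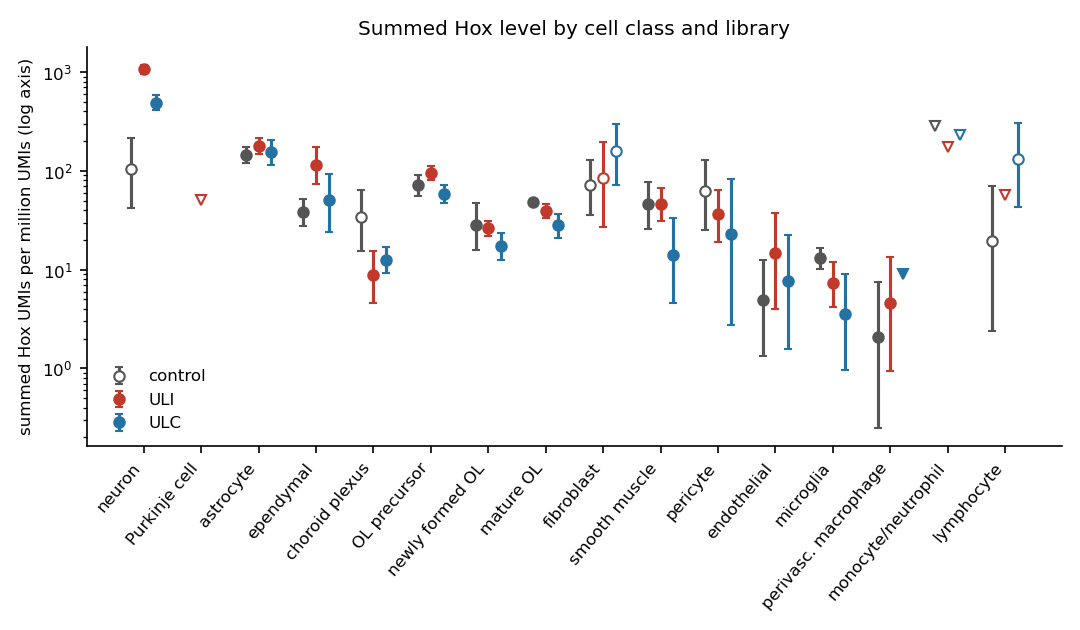
Summed Hox level in CPM (log axis) for each class on the horizontal axis in control, ULI and ULC. Points are class sums with 95% Poisson intervals, open points are classes of under 50 cells, and triangles mark the upper bound where the count was 0; neuron-like cells of ULI sit highest at 1067 CPM and perivascular macrophage-like cells of control lowest at 2.06 CPM.

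Because the libraries differ in depth, cells with a Hox UMI were also counted after each cell had been thinned to 500 UMIs. In neuron-like cells 51.9% of the 77 ULI cells and 26.7% of the 90 ULC cells held a Hox UMI before thinning, and 24.7% and 14.0% after it. In astrocyte-like cells the shares were 17.2%, 17.3% and 11.3% before thinning and 6.62%, 6.67% and 5.45% after it, in control, ULI and ULC. In mature oligodendrocyte-like cells they went from 23.9%, 8.48% and 4.55% to 1.35%, 1.66% and 1.27%. In microglia-like cells, which gave the background, they went from 2.55%, 1.10% and 0.830% to 0.756%, 0.222% and 0.440%.

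The neural classes carried sets of Hox genes that overlap in part, as the heat map of Hox genes shows. A gene was counted as found in a class when its lower bound there exceeded its upper bound in microglia-like cells of the same library in at least 2 of the 3 libraries, among genes with at least 20 UMIs in both classes together. A Hox gene mostly passed that minimum through the class where it is high, so these counts describe where the genes lie and are not evidence that the members differ from other genes.

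In neuron-like cells 5 of 5 Hox genes with enough UMIs were found (Hoxa5, Hoxb4, Hoxb5, Hoxc4 and Hoxc5), against 19.5% of all genes tested. In astrocyte-like cells 6 of 6 were found (Hoxa2, Hoxa5, Hoxb4, Hoxb5, Hoxc4 and Hoxd4), against 18.4%, and Hoxa2, Hoxa5 and Hoxb4 were found in all 3 libraries. In oligodendrocyte precursor-like cells 4 of 5 were found (Hoxa2, Hoxa3, Hoxa5 and Hoxd4), against 35.3%. In mature oligodendrocyte-like cells 2 of 5 were found (Hoxd1 and Hoxd4), against 20.4%. In ependymal-like cells, which line the ventricle, 1 of 2 was found, against 24.7%, and in smooth muscle-like cells 1 of 2, against 17%, and in both it was Hoxa2. In newly formed oligodendrocyte-like cells 0 of 4 were found, against 25%, and in choroid plexus-like cells 0 of 2, against 19.5%. Hoxa5, Hoxb4, Hoxb5 and Hoxc4 were found in both neuron-like and astrocyte-like cells.

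The axial level, measured as the share of Hox UMIs from paralogue groups 4 and above, had overlapping intervals between libraries in most classes and differed between classes. It was 97.2% (95.1 to 98.6) in the neuron-like cells of ULI and 96.8% (92 to 99.1) in those of ULC, and the 8 neuron-like cells of control gave 7 of 7 UMIs. In mature oligodendrocyte-like cells control gave 28.1% (24.9 to 31.5), ULI gave 23.1% (16.8 to 30.4) and ULC gave 21.8% (11.8 to 35.0). The mean paralogue number over UMIs was 4.71, 4.55 and 4.59 in neuron-like cells of control, ULI and ULC and 1.93, 1.92 and 1.89 in mature oligodendrocyte-like cells, so the order of these classes was the same in each library. Of the 7 UMIs in control neuron-like cells, 5 came from 1 cell. Hoxd1, a group 1 gene, alone gave 65.6%, 60.6% and 58.2% of the Hox UMIs of mature oligodendrocyte-like cells. Without it their share of groups 4 and above was higher in each library, as given with the alternatives below. The libraries then lay further apart, with control highest, so their closeness in this class holds only with Hoxd1 counted.

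With Hoxd1 counted, the other glia lay between these in most libraries. In astrocyte-like cells control gave 81.2% (72.9 to 87.8), ULI gave 61.7% (52.2 to 70.6) and ULC gave 78.0% (64.0 to 88.5), and the intervals of control and ULI do not overlap. In oligodendrocyte precursor-like cells it was 57.4%, 43.8% and 48.4%, with overlapping intervals, and in newly formed oligodendrocyte-like cells 73.3%, 66.4% and 46.3%, also overlapping. In ependymal-like cells it was 48.8%, 43.5% and 20%, the last from 10 Hox UMIs. In smooth muscle-like cells only 1 of 15, 1 of 28 and 2 of 5 Hox UMIs came from these groups.

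In choroid plexus-like cells the share differed between libraries, but their Hox level was near that of microglia-like cells. It was 33.9 CPM (15.5 to 64.4) in the 27 control cells, 8.81 CPM (4.55 to 15.4) in ULI and 12.6 CPM (9.15 to 17.0) in ULC. The intervals overlap those of microglia-like cells in control and ULI, and in ULC the upper bound of the latter is 9.10 CPM. As given above, no Hox gene was found in this class. Groups 4 and above gave 8 of 9 Hox UMIs in control, 1 of 12 in ULI and 28 of 43 in ULC, with intervals of 51.8% to 99.7%, 0.211% to 38.5% and 49.1% to 79.0%. Hoxa2 held 9 of the 12 UMIs in ULI, and Hoxb4 held 22 of the 43 in ULC. Otx2, a midbrain and forebrain gene that the choroid plexus also expresses, reached 1424, 1403 and 916 CPM in the same cells.

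**Figure D2:**
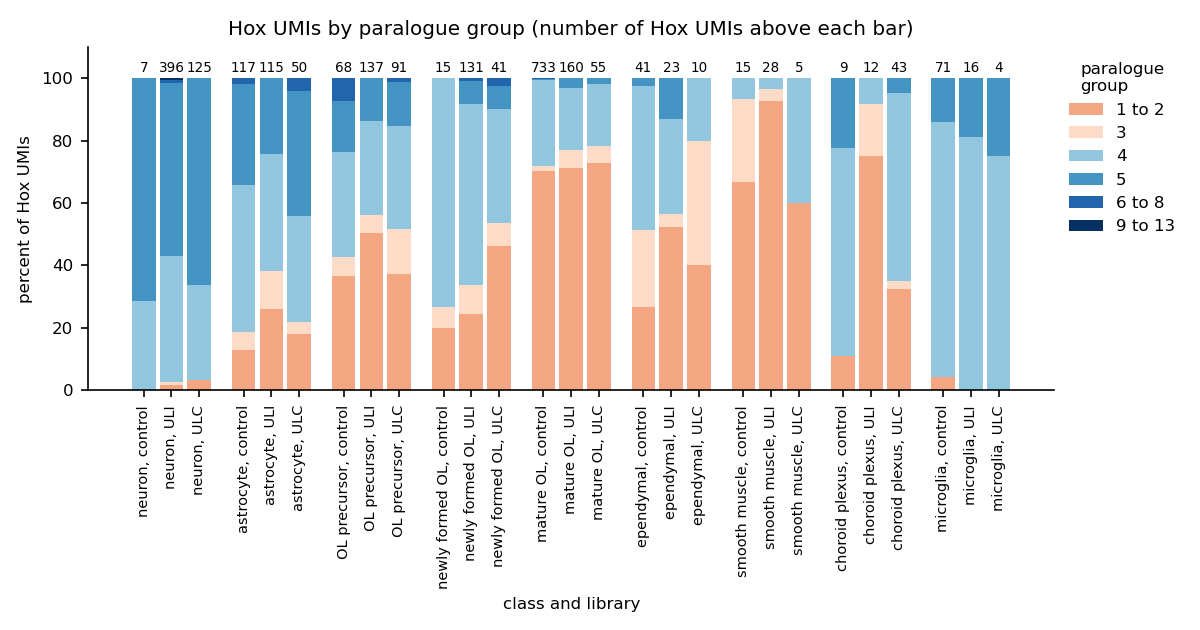
Percent of Hox UMIs from each range of paralogue groups (stacked colours) by class and library on the horizontal axis, with the number of Hox UMIs above each bar. The blue parts, groups 4 and above, fill 96.8% or more of each neuron-like bar and 21.8% to 28.1% of the mature oligodendrocyte-like bars. Hoxd1 alone gave 58.2% to 65.6% of the Hox UMIs in the latter.

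In neuron-like cells the Hox genes of groups 4 and 5 were read from several clusters at once. Hoxa5 and Hoxb5 are known for roles in the caudal hindbrain and cervical cord, and Hoxc4 and Hoxc5 are the first genes of cluster C. Hoxa5 held 318 CPM (263 to 381) in ULI and 110 CPM (73.3 to 159) in ULC. Hoxc4 held 269 CPM (219 to 328) and 78.8 CPM (48.1 to 122), Hoxb5 held 186 CPM (145 to 235) and 197 CPM (146 to 260), and Hoxb4 held 132 CPM (97.7 to 175) and 35.4 CPM (16.2 to 67.3). Hoxc5 held 86.2 CPM (59.0 to 122) and 19.7 CPM (6.39 to 46.0).

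The 8 neuron-like cells of control were too few for a comparison. The summed level was higher in ULI than in ULC by 1.12 on the log2 scale (0.82 to 1.42). By the rule that a ratio is called when it passes 2-fold and its interval excludes 0, 4 of 5 members were higher in ULI, against 30.8% of all genes tested called in either direction. These were Hoxc5 with a log2 ratio of 2.13 (0.76 to 3.85), Hoxb4 with 1.90 (0.86 to 3.11), Hoxc4 with 1.77 (1.07 to 2.55) and Hoxa5 with 1.53 (0.92 to 2.18), and the ratio of Hoxb5 was -0.08 (-0.63 to 0.47). The median log2 ratio was 1.77 over the 5 members and 0.16 over the 5467 genes tested. Hoxb4 and Hoxc5, with 9 and 5 UMIs in ULC, passed the minimum of 20 UMIs only through ULI. The count and the median therefore describe the members and are not evidence that they differ from other genes. The same limit holds for the ratios of members in the other classes below.

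Few cells carried these values. A single ULC cell held 54 of the 125 Hox UMIs (43.2%), among them 27 of the 28 UMIs of Hoxa5 and 20 of the 50 of Hoxb5, and it was among the 239 ULC cells with the highest doublet scores. In ULI the cell with most Hox UMIs held 43 of the 396, and 4 of these were of Hoxa5. Another ULI cell held 32 of the 118 UMIs of Hoxa5, and it stays in the values that follow. Without the cell with most Hox UMIs in each library the summed levels were 1001 CPM in ULI and 290 CPM in ULC, a log2 ratio of 1.79 (1.42 to 2.18), and Hoxa5 fell to 1 UMI in ULC. This alternative was chosen after the data were seen.

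**Figure D3:**
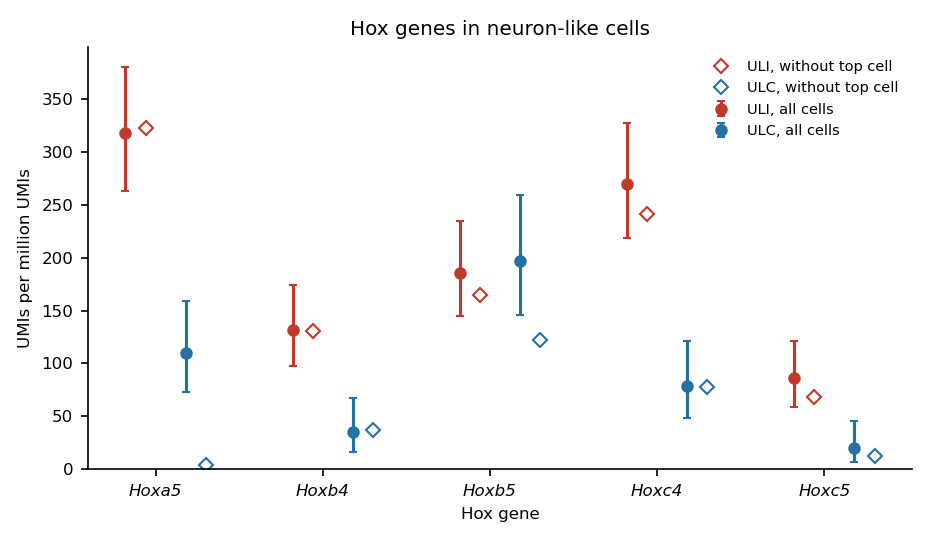
Level in CPM of 5 Hox genes (horizontal axis) in neuron-like cells of ULI (77 cells) and ULC (90 cells). Filled points are all cells with 95% Poisson intervals and open diamonds leave out the cell with most Hox UMIs in each library; Hoxa5 in ULC goes from 110 to 4.09 CPM.

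The Hox genes were often detected together in neuron-like cells. In ULI 40 of 77 cells held at least 1 Hox gene, 25 held at least 2 and 11 held at least 4, with up to 7 in a cell. In ULC the numbers were 24, 8 and 3 of 90 cells, with up to 5 in a cell. Hoxa5 and Hoxc4, which lie on different chromosomes, were seen in 19 and 23 ULI cells and shared 10 of them. The median depth of ULI cells with a Hox UMI was 4936 UMIs and that of cells without was 1022, and the part of depth in these counts was not tested.

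Excitatory and inhibitory neuron-like cells both carried them. Cells with UMIs of the glutamate transporter Slc17a6 and of no inhibitory marker held 1180 CPM (1039 to 1335) in ULI (41 cells) and 606 CPM (494 to 736) in ULC (46 cells). Cells with inhibitory markers alone held 1442 CPM (1167 to 1763) in ULI (15 cells) and 312 CPM (182 to 500) in ULC (14 cells). In this second set a single cell held 31.6% of the Hox UMIs in ULI and a single cell 35.3% in ULC. The ULC cell with most Hox UMIs held 52.9% of those of the first set, and without it that set held 302 CPM (223 to 400). Groups 4 and above gave 98.0% and 93.7% of the UMIs of these sets in ULI and 98.0% and 88.2% in ULC.

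The 35 Purkinje cell-like cells, all in ULI, held 0 Hox UMIs among 72804 UMIs, with an upper bound of 50.7 CPM. That bound lies above the 39.6 CPM of mature oligodendrocyte-like cells of ULI, so a low Hox level could have been missed. Purkinje cells belong to the cerebellum, which forms in front of the domain of Hox genes. In neuron-like cells the neuron marker list stood at 10208 CPM in ULI and 10921 CPM in ULC. Choroid plexus markers reached 528 CPM there in ULI and 1981 CPM in ULC, the median share of mitochondrial UMIs was 4.41% and 8.72%, and the part of both in the Hox difference was not tested.

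In astrocyte-like cells the same groups were present at a lower level, with Hoxa2 added, the only Hox gene that the most anterior Hox-positive segment expresses. Hoxa5 was at 27.4, 35.8 and 27.9 CPM in control, ULI and ULC, Hoxb4 at 22.5, 42.0 and 27.9 CPM, and Hoxa2 at 12.5, 28.0 and 18.6 CPM. The intervals of these 3 genes overlap in every pair of libraries. Hoxc4 was at 34.9 CPM (23.2 to 50.5) in 17 control cells, 17.1 CPM (8.54 to 30.6) in 8 ULI cells and 3.10 CPM (0.0784 to 17.3) in 1 ULC cell.

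Of the members with at least 20 UMIs in 2 libraries, 0 of 4 were called between ULI and control, against 15.4% of all genes, and 1 of 3 between ULC and control, against 19.9%. That gene was Hoxc4, which was lower in ULC with a log2 ratio of -3.49 (-8.85 to -0.90). The summed level gave 0.29 (-0.09 to 0.68) for ULI to control and 0.09 (-0.42 to 0.58) for ULC to control. The median log2 ratio over the members was 0.64 and 0.02, against -0.01 and -0.17 over all genes tested.

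UMIs of 10 of the 11 neuron markers were found in astrocyte-like cells of each library, summing to 122 CPM in control, 366 CPM in ULI and 505 CPM in ULC. Astrocyte-like cells with 0 UMIs of all neuron markers held 137 CPM (109 to 171), 171 CPM (134 to 214) and 153 CPM (105 to 215) of Hox UMIs, and Hoxc4 was at 33.9, 13.8 and 4.64 CPM in them. The choroid plexus markers, which summed to 142, 685 and 7378 CPM, were highest in ULC, and the part of neuron and choroid plexus RNA in these values was not tested.

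Along the oligodendrocyte lineage Hoxa2 gave the most Hox UMIs in precursor-like cells and Hoxd1 in mature ones. Hoxb4 gave the most in newly formed ones, where it was not found above microglia-like cells. Oligodendrocyte precursors divide and give rise to newly formed and then to mature oligodendrocytes, which wrap axons in myelin. Hoxa2 led in the precursor-like cells, with 20, 59 and 23 UMIs in control, ULI and ULC, or 21.0 CPM (12.8 to 32.4), 41.1 CPM (31.3 to 53.0) and 14.9 CPM (9.43 to 22.3). Hoxd1 gave 0 of 68, 2 of 137 and 1 of 91 Hox UMIs there. In newly formed oligodendrocyte-like cells Hoxb4 led with 9.46, 7.64 and 5.12 CPM, against 9.77, 5.94 and 2.67 CPM in microglia-like cells. By the rule above it was found there in 0 libraries. Hoxd1 gave 0 of 15, 4 of 131 and 6 of 41 Hox UMIs of the newly formed cells.

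In mature oligodendrocyte-like cells Hoxd1 made up most of the Hox signal in every library. It gave 481 of 733 Hox UMIs in control (65.6%, 62.1 to 69.1), 97 of 160 in ULI (60.6%, 52.6 to 68.2) and 32 of 55 in ULC (58.2%, 44.1 to 71.3). Its level was 31.6 CPM (28.8 to 34.5) in 255 control cells, 24.0 CPM (19.5 to 29.3) in 51 ULI cells and 16.3 CPM (11.1 to 23.0) in 25 ULC cells. Outside this class Hoxd1 was nearly absent, with 0, 1 and 0 UMIs in astrocyte-like cells, 0, 1 and 0 in neuron-like cells and 2, 0 and 0 in microglia-like cells.

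Across 33 combinations of class and library with at least 50 cells, the genes whose log2(CPM + 10) was most like that of Hoxd1 were Cntn3 (Pearson r 0.97), Cyp2j12 (0.97), Gm33594 (0.96), Hapln2 (0.95) and Gjb1 (0.95). Hapln2 binds the matrix at nodes of Ranvier and Gjb1 encodes connexin 32, both of myelinating oligodendrocytes. The points share libraries and depth, and r is a description of where the gene lies.

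Hoxd1 lies at the 3′ end of the D cluster on the forward strand of chromosome 2, at 74762980 to 74765142 (GRCm38), and the long noncoding RNA Haglr begins on the reverse strand at 74762896, so that 83 bases separate the 2 start sites. The promoter sequence is shown because both transcripts start from it and both were detected in mature oligodendrocyte-like cells. It is the 250 bases before Hoxd1 at chr2:74762730-74762979 on the forward strand, from RefSeq on GRCm38.p6, and capitals mark the bases between the 2 starts.
Hoxd1 promoter: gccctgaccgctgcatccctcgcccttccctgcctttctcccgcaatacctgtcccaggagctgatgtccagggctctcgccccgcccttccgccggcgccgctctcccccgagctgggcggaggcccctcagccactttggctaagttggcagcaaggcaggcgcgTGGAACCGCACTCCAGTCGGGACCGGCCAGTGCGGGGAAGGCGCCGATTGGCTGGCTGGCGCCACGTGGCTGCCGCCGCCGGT
It holds 24 CpG dinucleotides, against a median of 6 over the windows of 32851 mouse promoters, and 88.0% of those have fewer. The motif TGATNNAT, which pairs of Hox and Pbx proteins can bind, has 0 matches on either strand, and 7.68% of all promoter windows of this length hold it.

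Haglr, the neighbour of Hoxd1, was read in the same class. In mature oligodendrocyte-like cells it had 84, 21 and 71 UMIs in control, ULI and ULC, or 5.51, 5.20 and 36.2 CPM, and its r with Hoxd1 over the 33 points was 0.42. Within cluster 10, which holds most ULC cells of the class, it was at 36.3 CPM (22.2 to 56.1) in control and 51.6 CPM (40.0 to 65.5) in ULC. Hoxd1 was detected in 37.0%, 35.7% and 11.9% of the cells with Haglr and in 17.5%, 5.01% and 2.39% of the rest. Cells with Haglr were deeper, with a median of 27765 UMIs against 3433 in the rest of the control class, and the part of depth in the shared cells was not tested.

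The mature oligodendrocyte-like class was made of 4 clusters that the libraries filled unevenly. Cluster 5, led by Anln, Ermn and Apod, held 43.9% of the control cells of the class, 18.7% of the ULI cells and 0.569% of the ULC cells, and its cells were deep, with a median of 18048 UMIs. Cluster 10 held 4.91%, 2.68% and 52.8%, and cluster 9, led by Opalin, held 1.21%, 28.4% and 36.5%. Cluster 1 held 50%, 50.2% and 10.1%. Hoxd1 was at 33.1 CPM (30 to 36.3) in control and 31.6 CPM (24.6 to 39.9) in ULI within cluster 5. In cluster 1 it was at 22.7 CPM (15.4 to 32.2) in control, 30.6 CPM (18.1 to 48.3) in ULI and 0 CPM (0 to 43.0) in the 89 ULC cells. In cluster 9 it was at 7.62 CPM in ULI and 14.0 CPM in ULC, and in cluster 10 at 25.4 CPM in control and 17.7 CPM in ULC.

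Of the 4 members with at least 20 UMIs, 1 was called between ULI and control, against 22.1% of all genes, and 1 between ULC and control, against 25.3%. In both it was Hoxd4, a group 4 gene of the same cluster, at 11.1 CPM (9.48 to 12.9) in control, 3.22 CPM (1.71 to 5.50) in ULI and 3.06 CPM (1.12 to 6.65) in ULC. Its log2 ratios were -1.79 (-2.72 to -0.97) and -1.86 (-3.33 to -0.71). Within cluster 5 its ratio of ULI to control was -1.87 (-3.21 to -0.79), and within cluster 10 its ratio of ULC to control was -1.24 (-3.36 to 0.88). Hoxd4 shares exons with Hoxd3, which had 9, 4 and 0 UMIs in these cells.

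The ratios of Hoxd1 were -0.40 (-0.73 to -0.08) for ULI to control and -0.95 (-1.52 to -0.44) for ULC to control, and within cluster 5 that of ULI to control was -0.07 (-0.45 to 0.30), and within cluster 1 it was 0.43 (-0.49 to 1.32). The summed Hox level was lower than in control in ULI, with a ratio of -0.28 (-0.54 to -0.03), and in ULC, with -0.78 (-1.20 to -0.38). Within single clusters the ratio of ULI to control was -0.19 (-0.51 to 0.12) in cluster 5 and 0.55 (-0.17 to 1.25) in cluster 1, and that of ULC to control was -0.63 (-1.43 to 0.19) in cluster 10, so none of these intervals excludes 0. The median log2 ratio over the 4 members was -0.12 for ULI and -0.22 for ULC, against -0.03 and 0.04 over all genes.

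En2, a gene of the midbrain and the front of the hindbrain including the cerebellum, went the other way in mature oligodendrocyte-like cells. Its level in mature oligodendrocyte-like cells was 10.7 CPM (9.12 to 12.5) in control, 36.1 CPM (30.5 to 42.5) in ULI and 39.2 CPM (30.9 to 49.0) in ULC, and its log2 ratio to control was 1.76 (1.42 to 2.09) for ULI and 1.87 (1.46 to 2.27) for ULC. Within cluster 5 it was at 11.3 CPM in control and 37.9 CPM in ULI, and within cluster 10 at 7.26 CPM in control and 36.9 CPM in ULC, as the plot by cluster shows. Cells with an En2 UMI held 45.9 CPM of Hox UMIs in control (37.5 to 55.6), 53.8 CPM (39.7 to 71.4) in ULI and 15.3 CPM (6.17 to 31.6) in ULC, and cells without held 48.5, 35.6 and 31.8 CPM. The intervals of both sets overlap in each library for the sum. For Hoxd1 alone they do not overlap in ULI, with 38.1 CPM (26.4 to 53.3) in cells with En2 and 20 CPM (15.4 to 25.6) in cells without, and they overlap in control and ULC. The rise of En2 over control was not shared by all classes. In newly formed oligodendrocyte-like cells En2 was at 49.2 CPM (32.1 to 72.1) in control, 19.5 CPM (15.8 to 23.8) in ULI and 21.8 CPM (16.2 to 28.6) in ULC. In the same order it was at 12.5, 6.22 and 0 CPM in astrocyte-like cells and 0, 5.57 and 7.11 CPM in precursor-like cells.

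**Figure D4:**
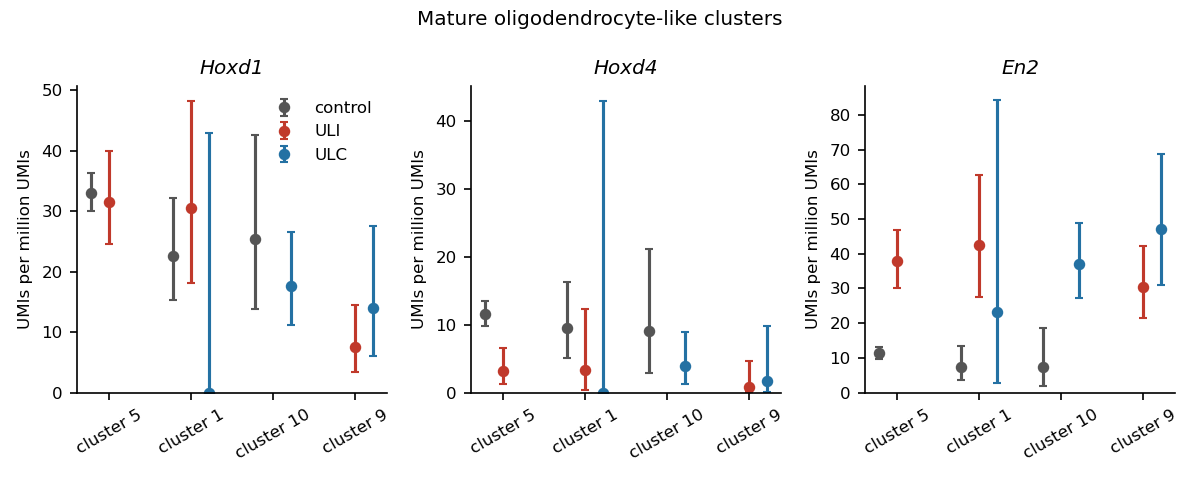
Level in CPM of Hoxd1, Hoxd4 and En2 in the mature oligodendrocyte-like clusters 5, 1, 10 and 9 (horizontal axis) of each library, with 95% Poisson intervals and only groups of at least 50 cells. Hoxd1 of control and ULI is level in cluster 5 at 33.1 and 31.6 CPM, while Hoxd4 is lower and En2 higher in ULI.

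In precursor-like cells, between ULI and control 0 of 3 members were called, against 12.8% of all genes, and between ULC and control 0 of 2, against 22.7%. Between ULI and ULC 2 of 3 were called, against 25.5%, namely Hoxa2 with a log2 ratio of 1.47 (0.75 to 2.23) and Hoxa5 with 1.28 (0.00 to 2.69), both higher in ULI. The summed level gave 0.42 (-0.01 to 0.86) for ULI to control, -0.28 (-0.75 to 0.20) for ULC to control and 0.70 (0.30 to 1.10) for ULI to ULC. The libraries fill different clusters here, since 464 of the 466 ULI cells were in cluster 6 and 258 of the 332 ULC cells in cluster 18, so library and cluster cannot be told apart. Within cluster 6, a choice made after the data were seen that left 74 ULC cells, the summed ratio of ULI to ULC was -0.46 (-1.31 to 0.53) and that of Hoxa2 0.27 (-1.35 to 2.59), at 38.8 and 32.2 CPM. The summed ratio was 0.34 (-0.12 to 0.82) with at most 20% mitochondrial UMIs and 0.35 (-0.12 to 0.84) with the cells of highest doublet score left out. The median over the members was 0.97, -0.60 and 1.28, against -0.02, -0.09 and 0.11 over all genes.

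In smooth muscle-like, pericyte-like and fibroblast-like cells Hoxa2 gave more Hox UMIs than any other member. It is known to pattern the neural crest of the second pharyngeal arch. It gave 7 of 15, 17 of 28 and 3 of 5 Hox UMIs in smooth muscle-like cells and 5 of 7, 6 of 12 and 2 of 2 in pericyte-like cells. In the 27, 26 and 30 fibroblast-like cells it gave 6 of 11, 5 of 5 and 7 of 9. Hoxd8, at 9 UMIs in all, had 5 of them in fibroblast-like and 3 in endothelial-like cells. In ependymal-like cells Hoxa2 was at 9.39 CPM (4.5 to 17.3) in control, 60.2 CPM (31.1 to 105) in ULI and 15.2 CPM (3.14 to 44.4) in ULC, and 6 ULI cells carried it.

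The Hox signal of microglia-like cells came mainly from Hoxb4. It had 53 UMIs in 36 control cells, 13 in 7 ULI cells and 3 in 3 ULC cells, or 9.77 CPM (7.32 to 12.8), 5.94 CPM (3.16 to 10.2) and 2.67 CPM (0.550 to 7.79). Hoxd1, the Hox gene with most UMIs in the data, had 2, 0 and 0 there. Control microglia-like cells with Hoxb4 held 944 CPM of the myelin gene Mbp against 1106 CPM in those without, 6459 CPM of the microglial gene Cx3cr1 against 5340 CPM, and 22.1 CPM of the neuronal gene Snap25 (3 UMIs) against 7.18 CPM. The part of RNA from other cells was not tested. Hoxb4 is also known as a gene of blood stem cells.

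Other genes that mark position along the axis were read in the same cells. Of the 15 forebrain genes listed, 11 were analysed, and they summed to 0 UMIs in neuron-like cells of all 3 libraries and to 0, 1 and 0 in astrocyte-like cells. The 7 genes measured of the 8 on the cerebellar list summed to 404, 493 and 543 CPM in neuron-like cells, led by Zic1, which is also expressed in the dorsal hindbrain, and 2 of 4 (Barhl1 and Pax6) were lower in ULI than in ULC, where 30.8% of all genes were called in either direction. Few cells carried these 2 genes, with Barhl1 in 2 ULC cells and 0 ULI cells and Pax6 in 4 ULC cells and 3 ULI cells. The 7 genes measured of the 8 on the midbrain and isthmus list summed to 74.8, 72.8 and 67.0 CPM in neuron-like cells.

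Cofactors of Hox proteins were present in the same classes. Meis2 was at 269, 517 and 453 CPM in neuron-like cells, 58.6, 70.0 and 62.0 CPM in astrocyte-like cells and 0.459, 6.68 and 6.62 CPM in mature oligodendrocyte-like cells. Pbx3 was at 96.1, 37.4 and 32.1 CPM in mature oligodendrocyte-like cells, with log2 ratios to control of -1.36 (-1.61 to -1.12) in ULI and -1.58 (-1.97 to -1.22) in ULC. Of the 9 cofactors, 0 of 6 measured were called in neuron-like cells between ULI and ULC, against 30.8% of all genes, and 0 of 6 in astrocyte-like cells between ULI and control, against 15.4%. Between ULC and control 1 was higher and 1 was lower of 6 in astrocyte-like cells, against 19.9% of all genes called. In precursor-like cells 0 of 7 were called in ULI, against 12.8%, and 2 of 8 were lower in ULC, against 22.7%. In mature oligodendrocyte-like cells 1 was higher and 2 were lower of 6 in ULI, against 22.1% of all genes called, and 2 were higher and 1 was lower of 6 in ULC, against 25.3%.

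Of the 13 regulators of Hox genes listed, 10 were analysed. Cyp26b1, which breaks down retinoic acid, was at 193, 138 and 105 CPM in astrocyte-like cells and 0 in microglia-like cells, and neither ratio to control was called. Egr2, which acts on Hox genes in the embryonic hindbrain, was at 302, 205 and 215 CPM in microglia-like cells. It was higher than in control in mature oligodendrocyte-like cells, at 2.95, 36.4 and 57.5 CPM, with log2 ratios of 3.62 (3.13 to 4.14) and 4.28 (3.77 to 4.82). In precursor-like cells it was lower than in control, at 103, 29.9 and 26.5 CPM, with log2 ratios of -1.78 (-2.33 to -1.25) and -1.95 (-2.52 to -1.41). All 16 Polycomb and trithorax genes were measured, and between 0 and 2 of them were higher and between 0 and 1 lower, of 10 to 15 measured, in each comparison of neuron-like, astrocyte-like and mature oligodendrocyte-like cells, where 15.4% to 30.8% of all genes were called.

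Of the 14 noncoding RNAs of the Hox clusters listed, 7 were analysed, led by Haglr with 247 UMIs, Hoxb3os with 103, Hotairm1 with 75 and Hoxaas3 with 73. Hoxb3os, antisense in the B cluster, was at 24.9, 9.34 and 18.6 CPM in astrocyte-like cells and at 0 in the neuron-like cells of all libraries, the class where Hoxb4 and Hoxb5 were highest. Hotairm1 of the A cluster was at 6.24, 14.0 and 6.2 CPM in astrocyte-like cells and at 3.14, 9.05 and 2.59 CPM in precursor-like cells. Without strand in the counting, reads of these RNAs and of genes on the other strand that they overlap cannot be told apart.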

How the data were processed

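The authors deposited unnormalized UMI counts per gene and cell barcode for 3 libraries, control, ULI and ULC, each made from pooled mice. The records conflict on the capture platform (10X, Drop-seq or BD Rhapsody), which remains unresolved here. The submitters' processing notes name CASAVA 1.8, UMI-tools, Seurat and mm10, while for the annotation, the use of strand and cell calling the entry is "not given in the sources used here".

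From the deposited counts, cells with at least 200 genes were kept (13964 of 14876), scaled to 10000 UMIs and ln(1 + x) transformed, and clustered (2000 variable genes without Hox genes, 30 components, 20 neighbours, Leiden resolution 1) into 27 clusters, which were assigned to 16 classes by marker lists. Doublets were kept in the values of the report and left out in an alternative. Automatic calls numbered 44 in control, 4 in ULI and 1 in ULC. The alternative left out the 44 of control but, by a cut on the score, the 259 ULI and 239 ULC cells with the highest doublet scores. Library totals were 27019650, 17428194 and 12768983 UMIs. CPM is UMIs per 1000000 UMIs of a class and library with an exact 95% Poisson interval, shares have exact Clopper-Pearson intervals, and log2 ratios have exact binomial intervals. These cover counting error only, since each group is 1 library, and no p-value was computed. A ratio was called past 2-fold with an interval that excludes 0, for genes with at least 20 UMIs in both libraries together. A count of 0 was limited by a floor of 3 counts. Gene positions are from GENCODE M21 and the promoter from RefSeq, both of GRCm38.

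Members were named with their UMIs, and other genes by the fixed lists, by the call rule within a list, and by likeness to Hoxd1. Results of some genes, among them those of 1 list, are not reported here. The members and lists were chosen with earlier results of these data known. The calling step was tested on simulated data. Python 3.11.15, numpy 2.4.6, scipy 1.17.1, pandas 2.3.3, scanpy 1.11.5, leidenalg 0.10.2 and matplotlib 3.10.9 were used. TMM factors came from edgeR 4.0.16 and median-of-ratios factors from DESeq2 1.42.0, both in R 4.3.3, for alternatives to the authors' unscaled counts.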

Additional observations from a re-analysis of the deposited data

How the results depend on the processing

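No paired analysis was possible because each group is 1 library. Of 214 alternatives to 30 main values, 167 gave the same result, 45 moved a value and 2 reversed it, and other clustering resolutions, Hox genes among the variable genes, TMM and median-of-ratios scaling moved none of these values. Depth limits the ULC library most, and the part of depth and of cluster makeup in the differences was not tested. Except where an alternative removes genes or cells by its construction, the cause was not tested. Without Hox genes whose exons overlap another gene, the Hox level of control, ULI and ULC was 87.3, 96.5 and 65.0 CPM in astrocyte-like cells and 32.2, 27.2 and 16.3 CPM in mature oligodendrocyte-like cells, and 738 and 224 CPM in neuron-like cells of ULI and ULC. The share of groups 4 and above was then 100%, 98.4% and 100%, 1.84%, 11.8% and 0%, and 99.6% and 100%. Without Hoxd1 the mature oligodendrocyte-like level was 16.5, 15.6 and 11.7 CPM and the share 81.7%, 58.7% and 52.2%. The libraries differed more in this share than with Hoxd1 counted. With totals that leave out mitochondrial, ribosomal, choroid plexus and haemoglobin genes, astrocyte-like cells held 178, 233 and 214 CPM and mature oligodendrocyte-like cells of control 53.6 CPM. The mean of per-cell CPM was 113 in astrocyte-like cells of ULC and 38.1 in mature oligodendrocyte-like cells of control. With at least 500 genes per cell the astrocyte-like cells of ULC held 211 CPM, and 1 Hox gene was found in mature oligodendrocyte-like cells. With at most 20% mitochondrial UMIs the astrocyte-like cells of ULI held 251 CPM and the neuron-like cells of ULC 599 CPM. In the doublet alternative, which left out 259 ULI and 239 ULC cells by score, the neuron-like cells of ULC held 287 CPM. The log2 ratio of ULI to ULC was then 2.03 and 3 Hox genes were found in neuron-like cells. Without the neuron-like cell with most Hox UMIs, an alternative chosen after the data were seen, these were 290 CPM and 1.79. Required in all 3 libraries, 3 Hox genes were found in astrocyte-like, 1 in mature oligodendrocyte-like and 1 in neuron-like cells. With no minimum of UMIs, the Hox genes past 2-fold were 1 for ULI and 2 for ULC in astrocyte-like cells and 3 and 2 in mature oligodendrocyte-like cells, against control, and with at least 50 UMIs there were 0 for ULC in astrocyte-like cells. In cluster 1 alone, also chosen after the data were seen, the log2 ratio of ULI to control in mature oligodendrocyte-like cells reversed to 0.55 for all Hox genes and 0.43 for Hoxd1. In cluster 6 alone, added likewise, that of ULI to ULC in precursor-like cells reversed to -0.46 for all Hox genes, and Hoxa5, at 0 UMIs in ULC, gave no value.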

Other observations

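Astrocyte-like cells with a UMI of Gdf10, a gene of Bergmann glia in the cerebellum, did not lack Hox transcripts. The 30 such cells of control held 257 CPM (152 to 407) of Hox UMIs against 135 CPM (110 to 165) in the other 273, with overlapping intervals. The 18 of ULI held 456 CPM (260 to 740) against 163 CPM (132 to 198) in the other 317, with intervals that do not overlap. ULC had 1 such cell, with 0 Hox UMIs. These levels rest on 18 Hox UMIs in 12 control cells and 16 in 8 ULI cells. No cluster was assigned to Bergmann glia, and other markers of that class were not compared in these cells.

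The 912 barcodes with under 200 genes held 12 Hox UMIs, which is 4, 3 and 5 in control, ULI and ULC, or 22.3, 21.8 and 19.0 CPM.

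Over the 33 combinations of class and library, the genes whose log2(CPM + 10) was most like the summed Hox level were Syn2, Cpeb1 and Nrxn3, each with a Pearson r of 0.87. Syn2 and Nrxn3 act at synapses. Without the neuron-like points, which leaves 31, r was 0.78 for Syn2 and 0.86 for Cpeb1. The points share libraries and depth.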
